A study of Mus musculus with 12 samples.

Results

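Libraries labelled p53 wild type and collected 3 h after irradiation were compared with those of the same label collected 1 h after it. The comparison rests on 4 of the 12 RNA-seq libraries of the series, 2 at each time, chosen by the labels alone. All libraries came from mouse embryos at embryonic day 9.5. The 4 libraries compared came from embryos irradiated in the pregnant mouse with 30 Gy of X-rays at 5 Gy per minute. The 6 groups of the series are untreated embryos, embryos at 1 h and embryos at 3 h, each labelled p53 wild type (+/+) or p53 knockout (-/-), with 2 libraries per group. The labels name no strain or knockout allele and do not say whether a library holds 1 embryo or a pool, so p-values measure only the spread between these libraries.

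Abundance is given in TPM, which add up to the same total in every library. They keep no read depth, so no counting error can be given. A gene was tested if it reached a TPM of 1 in at least 2 of the 12 libraries, which 15535 of 53647 gene IDs did. Differences are given as 3 h minus 1 h on the log2(TPM + 1) scale, where changes of low genes come out too small. They were tested with limma over all 12 libraries and called at a Benjamini-Hochberg adjusted p under 0.05. Libraries carry a number, 1 or 2, and those sharing a number departed from their groups in a common way, so a fit with the number as a replicate block stands beside the main one.

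Ionizing radiation breaks DNA, and cells with broken DNA hold back entry into mitosis through the checkpoint kinases ATM, ATR, CHK1 and CHK2. The p53 protein adds a transcriptional arm: it turns on the inhibitor Cdkn1a (p21), which keeps cyclin-dependent kinases inactive. Genes of G2 and mitosis are transcribed in a pulse late in the cell cycle and fall silent after division. In bulk tissue, fewer cells of a type and less RNA per cell cannot be told apart.

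The transcript of the targeted gene went against the genotype labels in the irradiated libraries. Trp53 measured 114 and 66.8 TPM at 1 h, then 93.7 and 68.0 TPM at 3 h under the label wild type. In libraries labelled knockout it measured 250.1 and 209.5 TPM at 1 h, then 242 and 219.8 TPM at 3 h. The untreated libraries were mixed, with 114 and 211 TPM in the wild type label and 265 and 79.1 TPM in the knockout label (numbers 1 and 2), so number 2 of the knockout label lay below both of the wild type label. The labels do not say which part of the gene is deleted, and a transcript total does not show whether a protein is made. None of the 4 genes of the series title was called between the times. Cdkn1a, the p21 inhibitor, measured 6.01 and 8.36 TPM at 1 h, then 6.96 and 6.18 TPM at 3 h, with 5.91 and 6.60 TPM in the untreated libraries of the label. In the libraries labelled knockout it measured 79.4 and 76.2 TPM at 1 h, then 499 and 444 TPM at 3 h. Every direction below belongs to libraries labelled wild type, whatever their genotype was.

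Further facts of the libraries touch the results. The 1 h libraries numbered 2 of both labels stood apart from the rest, at 67.9 (wild type) and 66.4 (knockout) on the first principal component, where the other 10 lay between -46.1 and 11.8. Cytosolic ribosomal protein genes took 19.869% and 20.002% of their TPM, against 12.2% to 14.5% elsewhere. Sex-linked genes also differed: both 1 h libraries labelled wild type and the 3 h library numbered 2 held Y-linked transcripts such as Eif2s3y (33.9, 36.3 and 35.0 TPM). The 3 h library numbered 1 had none and held 135 TPM of Xist, the RNA of the inactive X chromosome. Defining markers of trophoblast and decidua were nearly absent, with 9 or 10 of 12 listed genes under 1 TPM in each of the 4 libraries, while every listed neural progenitor gene exceeded that level.

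Transcripts of the machinery of mitosis were lower at 3 h than at 1 h. No gene passed the main fit, in which 0 of 15535 (0%) were called. At an unadjusted p under 0.05 there were 928 (5.97%), of which 609 (3.92%) were higher and 319 (2.05%) lower at 3 h. With the replicate block 13 genes (0.0837%) were called, 11 lower (0.0708%) and 2 higher (0.0129%). Of the 11 that fell, 10 are on the lists for G2 and mitosis: Cdc20, Hmmr, Prc1, Aurka, Tpx2, Cks2, Plk1, Pif1, Psrc1 and Ccnb2. The eleventh was H1f0, and the genes that rose were Myc and Trim6.

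Plk1, the Polo-like kinase that drives entry into and passage through mitosis, measured 119 and 115 TPM at 1 h, then 56.7 and 62.3 TPM at 3 h. Its difference was -0.96 (SE 0.147), with an adjusted p of 0.503 in limma without the block and 0.0396 with it. Both 3 h libraries lay below both 1 h libraries, and the untreated libraries of the label were higher still, at 165 and 191 TPM. Aurka, the Aurora A kinase of the spindle poles, measured 84.2 and 91.1 TPM at 1 h, then 42.4 and 46.1 TPM at 3 h (difference -0.97, SE 0.153, limma adjusted p 0.0238 with the block). Tpx2, which activates Aurora A on spindle microtubules, measured 158 and 119 TPM at 1 h, then 70.5 and 66.3 TPM at 3 h. The differences of these 3 genes lay between -0.96 and -0.99.

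Cdc20, the activator of the anaphase-promoting complex, measured 108 and 197 TPM at 1 h, then 43.5 and 60.8 TPM at 3 h. The 1 h libraries were far apart, yet both exceeded the 3 h libraries, and the difference was -1.49 (SE 0.365). Ccnb2, a B-type cyclin that partners Cdk1, measured 85.5 and 113 TPM at 1 h, then 51.6 and 59.8 TPM at 3 h. Cks2, a small subunit bound to Cdk1, measured 126 and 280.4 TPM at 1 h, then 67.5 and 112 TPM at 3 h. In Cks2 the library number mattered more than in the other called genes: number 2 was the higher library at both times, and the main fit gave an unadjusted p of 0.0707.

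Prc1, which bundles microtubules of the spindle midzone, measured 95.8 and 93.0 TPM at 1 h, then 43.3 and 47.2 TPM at 3 h (difference -1.05, SE 0.161). Its 1 h values lay within the range of the untreated ones, at 91.5 and 108 TPM. Hmmr, a microtubule-associated protein of the spindle, measured 37.5 and 43.3 TPM at 1 h, then 15.5 and 20.6 TPM at 3 h. Psrc1, a spindle protein that is also on the list of p53 targets, measured 36.0 and 59.2 TPM at 1 h, then 16.7 and 17.3 TPM at 3 h. Pif1, a DNA helicase, measured 6.58 and 10.6 TPM at 1 h, then 2.03 and 1.74 TPM at 3 h, which at -1.70 (SE 0.267) is the largest difference among the 13 called genes. H1f0, the linker histone H1.0, measured 190.3 and 230.3 TPM at 1 h, then 94.2 and 86.7 TPM at 3 h. It had the smallest p of all genes without the block (2.68e-05, limma adjusted p 0.417).

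**Figure D1:**
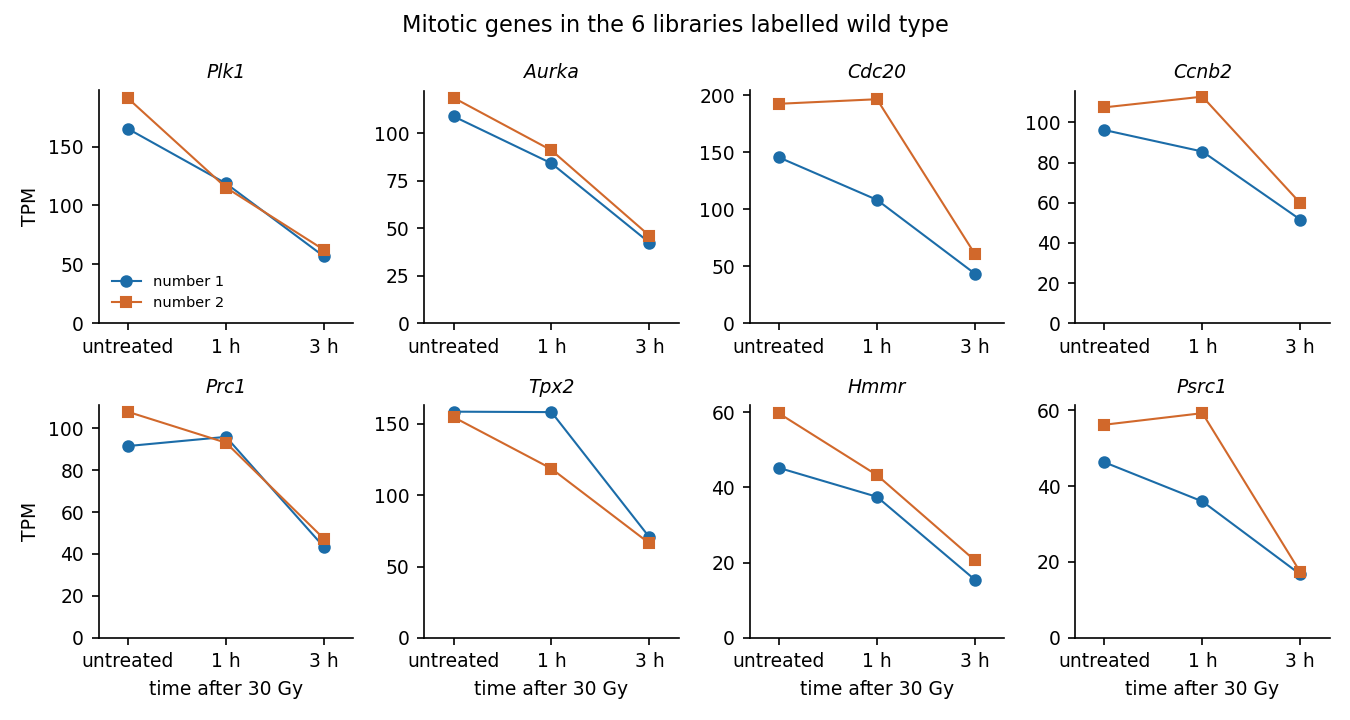
TPM (linear axis from 0) of 8 mitotic genes in the 6 libraries labelled wild type, untreated and 1 h and 3 h after 30 Gy; circles and squares are libraries numbered 1 and 2, and lines join libraries of the same number. In each gene both 3 h libraries lie below the other 4, as in Plk1 at 56.7 and 62.3 TPM.

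The promoters of some of these genes are printed to show short sequence elements that the comparison did not use. The windows are the 100 bases before the annotated start in the RefSeq promoter table (build GRCm38.p6, an earlier build than the one the authors name), 5′ to 3′ on the strand of the gene. Shown are the 6 of 8 called mitotic genes with a table entry whose entry holds the cell cycle homology region, CHR (TTTGAA), and capitals mark a CHR or a CCAAT box (CCAAT), each on either strand. Where a gene had several entries, one with a CHR before the start was preferred. The 6 were picked for a CHR, so that they share it is no result. The genes are Cdc20 (chr4:118437344-118437443, minus strand), Hmmr (chr11:40733438-40733537, minus), Prc1 (chr7:80294376-80294475, plus), Aurka (chr2:172370571-172370670, minus), Plk1 (chr7:122159335-122159434, plus) and Ccnb2 (chr9:70421555-70421654, minus).
Cdc20: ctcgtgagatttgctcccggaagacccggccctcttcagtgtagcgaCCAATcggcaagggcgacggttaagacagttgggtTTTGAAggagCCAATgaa
Hmmr: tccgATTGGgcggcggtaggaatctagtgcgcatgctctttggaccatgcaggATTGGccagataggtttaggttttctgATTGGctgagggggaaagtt
Prc1: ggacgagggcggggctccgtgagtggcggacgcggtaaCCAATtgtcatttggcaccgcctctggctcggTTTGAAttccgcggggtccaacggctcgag
Aurka: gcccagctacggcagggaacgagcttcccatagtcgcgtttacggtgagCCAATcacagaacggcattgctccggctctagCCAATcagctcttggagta
Plk1: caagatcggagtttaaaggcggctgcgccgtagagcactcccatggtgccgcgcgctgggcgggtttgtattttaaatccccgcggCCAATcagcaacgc
Ccnb2: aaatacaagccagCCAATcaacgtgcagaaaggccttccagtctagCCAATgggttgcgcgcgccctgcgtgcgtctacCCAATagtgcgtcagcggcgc

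Every window holds at least 1 CCAAT box, and Hmmr and Ccnb2 hold 3 each. In Cdc20 the CHR begins 18 bases before the start and in Prc1 30 bases before it. In the other 4 genes a CHR lies beyond the printed bases. It begins at base 9 of the transcribed side in Hmmr, 33 in Aurka, 31 in Plk1 and 5 in Ccnb2. Ccnb2 holds another CHR that begins 167 bases before the start. The CHR is known as the site where the MuvB complexes repress and activate genes of G2 and mitosis, and CCAAT boxes, bound by NF-Y, are known to lie beside it. Of 68 promoters of 300 bases for 62 of the 76 G2 and mitosis genes, 42 (61.8%) held a CHR on either strand, against 11.9% of the promoters of tested genes and 17.9% of all 32851 promoters in the table. Both elements together stood in 52.9% of them, against 4.91% of the promoters of tested genes. Among the 41 promoters of G1/S and DNA replication genes, 12.2% held a CHR, while 29.3% held an E2F element (TTTGGCGC or TTTCGCGC, either strand), which 1.45% of the promoters of tested genes held. The median difference was -0.57 in the 39 mitotic genes with a CHR in a promoter and -0.36 in the 23 without one. These are matches of letters and show no binding.

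The lists for G2 and mitosis hold 76 genes, all of which passed the filter: 25 kinases, cyclins and factors of mitotic exit, and 51 genes of spindle, kinetochore and cytokinesis. Their median difference was -0.47, against 0.04 for all genes tested, and it was -0.48 within the libraries numbered 1 and -0.54 within those numbered 2. At an unadjusted p under 0.05, 30 of the 76 were lower and 1 was higher (2.05% and 3.92% of all genes). Both 3 h libraries lay below both 1 h libraries in 49 of them (11.5% of all genes), and the difference was negative within both numbers in 61 (22.7% of all genes). In 47 of the 76 (61.8%) both 3 h libraries were also below both untreated libraries of the label, which held for 5.28% of all genes. Without both 1 h libraries numbered 2 the median was -0.39, against 0.11 for all genes.

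Members varied in size. Among those named after their values were seen, Aspm, a spindle pole protein, measured 17.7 and 19.9 TPM at 1 h, then 8.63 and 9.13 TPM at 3 h (difference -1.003). Kif2c, a kinesin that takes apart microtubules at kinetochores, measured 70.3 and 59.7 TPM at 1 h, then 40.8 and 41.9 TPM at 3 h (-0.64). Bub1b, the BUBR1 kinase of the spindle checkpoint, measured 97.8 and 115 TPM at 1 h, then 61.7 and 58.7 TPM at 3 h (-0.81). Other members differed less, or overlapped. Cdk1, the mitotic kinase, measured 510.4 and 408 TPM at 1 h, then 376 and 333 TPM at 3 h (-0.36, SE 0.185). Ube2c, which charges the anaphase-promoting complex with ubiquitin, measured 276 and 388 TPM at 1 h, then 207 and 253 TPM at 3 h (-0.52). Mki67, the proliferation antigen Ki-67, measured 95.4 and 70.0 TPM at 1 h, then 90.0 and 86.8 TPM at 3 h, so its libraries overlapped. The member that was higher at an unadjusted p under 0.05 was Mybl2, the B-MYB transcription factor that is itself transcribed at the G1/S boundary, with 48.1 and 46.9 TPM at 1 h, then 66.7 and 74.7 TPM at 3 h (0.56).

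Genes of G1/S and DNA replication leaned the other way by a smaller amount. Of 44 listed genes, all of which passed the filter, 8 were higher and 0 lower at an unadjusted p under 0.05 (3.92% and 2.05% of all genes). None was called with the block, and the median difference was 0.21. Libraries did not overlap, with 3 h higher, in 16 of the 44 (20.1% of all genes), and 34 were higher at 3 h within both numbers (34.0% of all genes). In 15 of them (34.1%, against 8.39% of all genes) both 3 h libraries exceeded the untreated libraries as well. Cdc45, part of the replicative helicase, measured 52.3 and 45.6 TPM at 1 h, then 71.6 and 67.6 TPM at 3 h (difference 0.50, SE 0.132, limma adjusted p 0.118 with the block). Pole, the leading-strand polymerase, measured 33.5 and 28.3 TPM at 1 h, then 44.6 and 42.6 TPM at 3 h. Mcm4, another helicase subunit, measured 182 and 155 TPM at 1 h, then 216 and 239.6 TPM at 3 h. Slbp, which binds the stem-loop of histone messenger RNAs, measured 187 and 170.2 TPM at 1 h, then 233 and 222 TPM at 3 h (both genes were chosen after their values were seen). Replication histones themselves, whose messenger RNAs mostly lack a poly(A) tail, had a median difference of -0.03 within number 1 and of -0.86 within number 2.

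Repair genes had a median difference of 0.23 over 29 genes of double-strand break signalling and repair. Of these, 3 were higher and 0 lower at an unadjusted p under 0.05 (3.92% and 2.05% of all genes). Brca1, which acts in repair by homologous recombination, measured 27.3 and 24.6 TPM at 1 h, then 51.6 and 57.5 TPM at 3 h (difference 1.04, SE 0.194, limma adjusted p 0.0724 with the block). Both 3 h libraries lay above the untreated ones, at 39.4 and 38.0 TPM, and both 1 h libraries below them. Exo1, a nuclease that resects broken ends, measured 74.1 and 81.8 TPM at 1 h, then 106 and 133 TPM at 3 h. Rad50, of the MRN complex that senses breaks, measured 22.0 and 17.7 TPM at 1 h, then 27.6 and 25.1 TPM at 3 h.

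**Figure D2:**
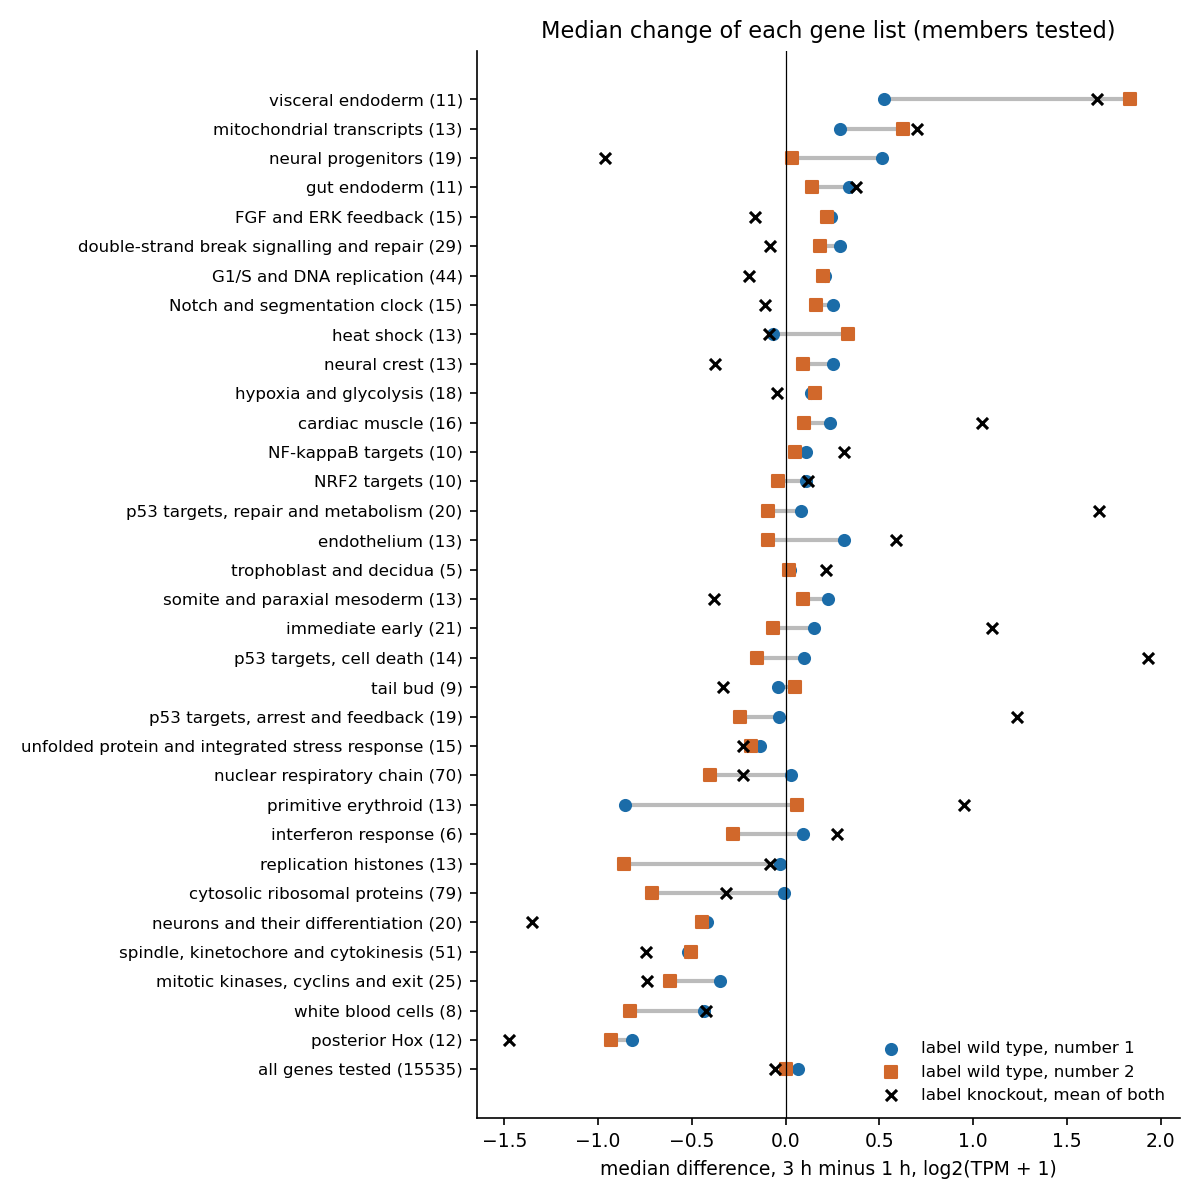
Median difference, 3 h minus 1 h on the log2(TPM + 1) scale, of each gene list (number of members tested in brackets); circles are libraries numbered 1 and squares those numbered 2 of the wild type label, a grey bar joins them, and crosses are the means for the knockout label. Posterior Hox, neuron and mitosis lists lie left of 0 in both numbers, and visceral endoderm lies farthest right at 0.53 and 1.84.

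Targets of p53 showed no common direction in these libraries. Of 53 listed targets, 2 were higher and 3 lower at an unadjusted p under 0.05 (3.92% and 2.05% of all genes). The medians of the lists were -0.10 for arrest and feedback (19 genes), -0.02 for cell death (14) and 0.06 for repair and metabolism (20). Mdm2, the ubiquitin ligase that degrades p53, measured 46.3 and 41.9 TPM at 1 h, then 33.5 and 33.6 TPM at 3 h, the level of the untreated libraries (33.7 and 36.1 TPM). Rprm (Reprimo), a p53 target linked to G2 arrest, measured 24.4 and 25.2 TPM at 1 h, then 17.1 and 14.4 TPM at 3 h. Tnfrsf10b, the death receptor DR5, was on the side of the higher genes, with 3.71 and 2.79 TPM at 1 h, then 5.35 and 5.24 TPM at 3 h. Ccng1 (cyclin G1) measured 10.7 and 12.6 TPM at 1 h, then 10.6 and 14.0 TPM at 3 h, and its libraries overlapped. Foxo3, a forkhead factor, measured 8.91 and 10.2 TPM at 1 h, then 12.0 and 14.8 TPM at 3 h (difference 0.45, SE 0.232). Fbxw7, a subunit of a ubiquitin ligase that targets cyclin E, measured 14.3 and 9.65 TPM at 1 h, then 15.4 and 15.3 TPM at 3 h (0.35, SE 0.184). Neither was called with or without the block.

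Many of the genes that differed between the times were those at which the 1 h libraries stood apart from both the untreated and the 3 h ones. Of the 609 genes higher at an unadjusted p under 0.05, 406 (66.7%) had both 1 h libraries below the untreated and 3 h ones, against 9.39% of all genes. In 379 of the 609 both 3 h libraries were above all others, and 196 genes are in both counts, so that in 210 of the 406 the 3 h libraries did not both exceed the untreated ones. Of the 319 lower genes, 179 had both 1 h libraries above all others and 205 had both 3 h libraries below all others, with 75 genes in both counts. The choice by 3 h against 1 h fixes part of these counts, so they describe the genes and test nothing.

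Several short-lived transcripts were lowest at 1 h. Myc, the growth-promoting transcription factor, measured 34.9 and 21.7 TPM at 1 h, then 74.2 and 49.0 TPM at 3 h, with 73.5 and 58.1 TPM in untreated libraries (difference 1.10, SE 0.395, limma adjusted p 0.791 without and 0.0480 with the block). Ccn1 (Cyr61), a matricellular target of YAP and serum response factor, measured 15.2 and 15.0 TPM at 1 h, then 26.0 and 22.9 TPM at 3 h, with 24.6 and 22.9 TPM in untreated libraries. Ccn2 measured 14.0 and 10.7 TPM at 1 h, then 23.7 and 19.3 TPM at 3 h. Of 22 listed immediate early genes 21 passed the filter, with a median difference of 0.005 (0.15 within number 1 and -0.07 within number 2). The difference was positive in 11 and negative in 10. Those higher at an unadjusted p under 0.05 were 4 (3.92% of all genes): Ccn1, Ccn2, Myc and Klf6, the last named after its values were seen. None was lower. At 1 h 5 were lowest and 1 was highest (9.39% and 4.52% of all genes).

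Some feedback genes of signalling pathways were lowest at 1 h too. Dusp6, a phosphatase that switches off ERK, measured 24.9 and 37.0 TPM at 1 h, then 45.1 and 61.8 TPM at 3 h, with 46.8 and 62.5 TPM untreated. Within each number its 3 h value was within 2 TPM of the untreated one. Spry2, another inhibitor of FGF signalling, measured 9.73 and 13.3 TPM at 1 h, then 18.4 and 15.5 TPM at 3 h. Hes1, a Notch target and repressor with a short-lived transcript, measured 18.8 and 30.8 TPM at 1 h, then 40.1 and 40.7 TPM at 3 h. Of 15 FGF and ERK feedback genes 6 (40%) were lowest at 1 h, as were 6 of 15 Notch and segmentation clock genes, against 9.39% of all genes. At an unadjusted p under 0.05, 2 and 1 of the lists' genes were higher and none was lower (3.92% and 2.05% of all genes). Dll3, a Notch ligand of the segmentation clock, lay the other way, with 7.90 and 12.6 TPM at 1 h, then 5.80 and 4.96 TPM at 3 h. Sp5, a Wnt-responsive transcription factor of the tail bud, measured 2.27 and 3.54 TPM at 1 h, then 9.91 and 7.00 TPM at 3 h (difference 1.28, SE 0.239), with 8.48 and 7.33 TPM untreated. It had the largest difference among the higher genes named by size.

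Regional transcription factors were among them. Otx2, which patterns forebrain and midbrain, measured 25.4 and 21.4 TPM at 1 h, then 42.3 and 39.7 TPM at 3 h, with 40.0 and 37.6 TPM untreated (difference 0.79, SE 0.148). Foxc1, a forkhead factor of paraxial mesoderm and cephalic mesenchyme, measured 9.66 and 10.6 TPM at 1 h, then 18.0 and 17.4 TPM at 3 h, with 18.0 and 19.7 TPM untreated. Foxc2 measured 14.7 and 13.0 TPM at 1 h, then 23.8 and 21.0 TPM at 3 h. The spread within each pair was small next to the gap in all 3 genes, yet their limma adjusted p with the block stayed between 0.066 and 0.0783. Foxa2, a factor of floor plate, node and gut endoderm, measured 6.68 and 5.29 TPM at 1 h, then 11.8 and 11.4 TPM at 3 h. The lists that hold these forkhead genes differed in how far they leaned. Of 13 somite and paraxial mesoderm genes 8 had a positive and 5 a negative difference, with a median of 0.03. Of 11 gut endoderm genes 9 were positive and 2 negative, with a median of 0.27 (0.34 within number 1 and 0.14 within number 2). With each library left out the gut endoderm median lay between -0.03 and 0.48. In these lists 2 and 3 genes were higher at an unadjusted p under 0.05 (3.92% of all genes). The median of the 19 neural progenitor genes was 0.31, at 0.51 within number 1 and 0.04 within number 2. Of the 19, 2 (Otx2 and Sox1) were higher at an unadjusted p under 0.05 (3.92% of all genes).

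The opposite pattern, highest at 1 h, was found in posterior Hox genes and in neuronal genes. Posterior Hox genes give cells of the trunk and tail their position along the body axis. Of 16 listed, 12 passed the filter, and all 12 had a negative difference, with a median of -0.82. That median was -0.82 within number 1 and -0.93 within number 2. At an unadjusted p under 0.05, 8 were lower and 0 higher (2.05% and 3.92% of all genes), and none was called with the block. Libraries did not overlap, with 3 h lower, in 11 (11.5% of all genes). In 10 of the 12 both 1 h libraries also exceeded the untreated ones, against 4.52% of all genes. Of the 16, 6 and 4 were under 1 TPM in the 1 h libraries, against 8 and 7 in the 3 h ones. Low members can pass the filter through 1 h libraries alone, which fixes part of these counts.

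Hoxb8 measured 30.4 and 31.2 TPM at 1 h, then 21.8 and 18.6 TPM at 3 h, with 23.3 and 20.9 TPM untreated (difference -0.59, SE 0.163). Hoxa9 measured 10.4 and 15.4 TPM at 1 h, then 5.20 and 5.59 TPM at 3 h, with 7.41 and 4.90 TPM untreated. Hoxb9, chosen after its values were seen as the most abundant member, measured 54.3 and 58.6 TPM at 1 h, then 34.9 and 42.8 TPM at 3 h. The more distal genes, also chosen afterwards, were low throughout. Hoxa10 measured 2.19 and 3.89 TPM at 1 h, then 0.35 and 1.13 TPM at 3 h. Hoxc10 stood at 2.47 and 2.58 TPM at 1 h, was listed at 0 and 0.36 TPM at 3 h and stood at 0.06 and 0.04 TPM untreated. The summed level of the listed Hox genes was 143 and 158 TPM at 1 h, 84.3 and 98.2 TPM at 3 h and 111 and 87.2 TPM untreated. Without both 1 h libraries numbered 2 the median was -0.66, against 0.11 for all genes. Fewer of the 12 were then lower at an unadjusted p under 0.05.

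Genes of neurons and their differentiation had a median difference of -0.43 over 20 genes, of which 16 were negative and 4 positive. Of the 20, 7 were lower and 0 higher at an unadjusted p under 0.05 (2.05% and 3.92% of all genes). Libraries did not overlap in 12 with 3 h lower and in 2 with 3 h higher (11.5% and 20.1% of all genes). At 1 h 12 were highest and 2 lowest, against 4.52% and 9.39% of all genes. Stmn2, which regulates microtubules in growing axons, measured 17.0 and 24.8 TPM at 1 h, then 10.8 and 8.41 TPM at 3 h, with 8.60 and 8.39 TPM untreated. Nefm, a neurofilament subunit, measured 33.2 and 42.1 TPM at 1 h, then 20.3 and 11.9 TPM at 3 h. Tubb3, the neuronal beta-tubulin, measured 89.1 and 120.3 TPM at 1 h, then 64.3 and 54.0 TPM at 3 h (chosen after its values were seen). The summed level of the list was 317 and 411 TPM at 1 h, 253 and 229.6 TPM at 3 h and 238 and 242 TPM untreated, so the 1 h libraries stood above the other 4. Without both 1 h libraries numbered 2 the median was -0.44, against 0.11 for all genes. Fewer of the 20 were then lower at an unadjusted p under 0.05.

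Markers of white blood cells behaved likewise at a low level. Of 12 listed, 8 passed the filter, and all 8 were lower at 3 h within both numbers (22.7% of all genes). Of the 12, 7 and 4 were under 1 TPM in the 1 h libraries, against 9 in each 3 h library. Low members can pass the filter through 1 h libraries alone, which fixes part of these counts. Of the 8, 4 were lower at an unadjusted p under 0.05 (2.05% of all genes). The defining markers Ptprc, Lyz2, C1qa and C1qc did not pass the filter. Cd68, a lysosomal protein of macrophages, measured 8.52 and 4.15 TPM at 1 h, then 1.44 and 0.95 TPM at 3 h, with 1.91 and 1.80 TPM untreated (difference -1.68, SE 0.453). Csf1r, the receptor that macrophages depend on, measured 1.31 and 1.47 TPM at 1 h, then 0.21 and 0.70 TPM at 3 h. Without both 1 h libraries numbered 2 the median moved from -0.67 to -0.37. Summed over the list, the level was 21.7 and 28.9 TPM at 1 h and 9.72 and 11.1 TPM at 3 h. Pf4, a platelet and megakaryocyte gene, measured 5.91 and 16.04 TPM at 1 h, then 3.14 and 3.83 TPM at 3 h.

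**Figure D3:**
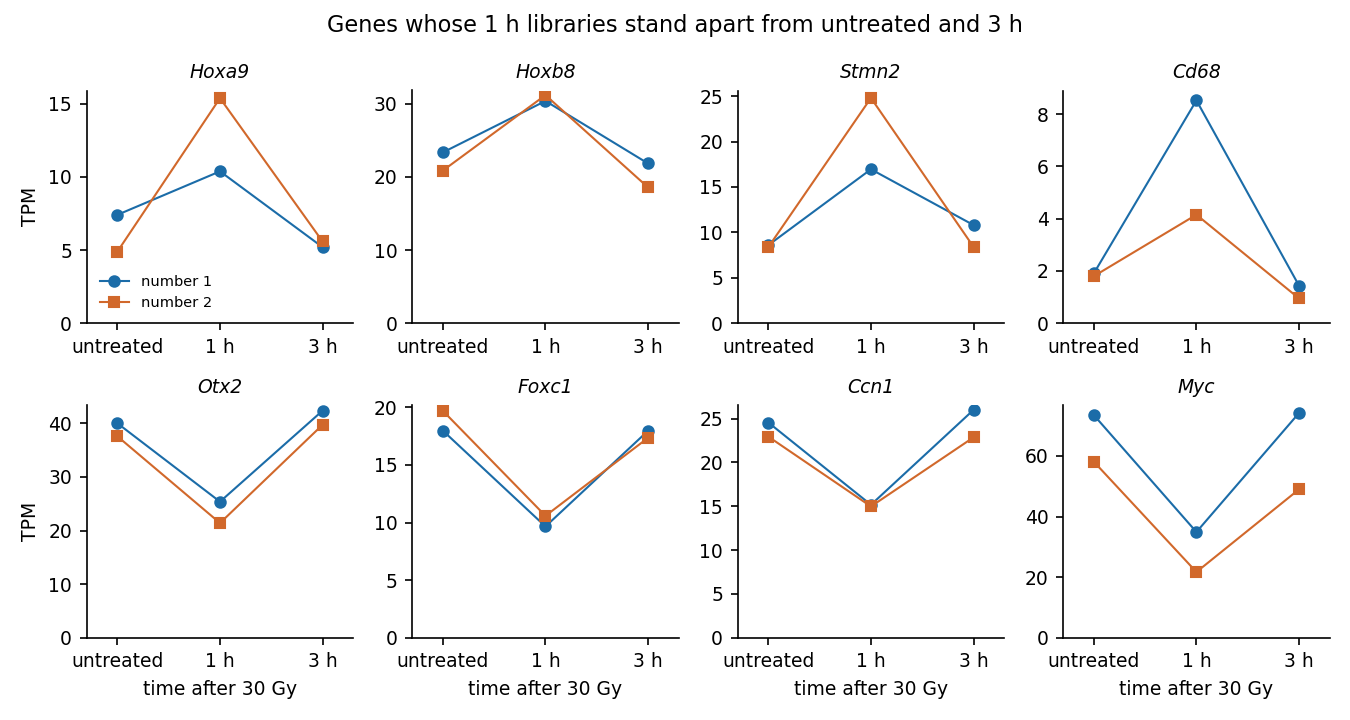
TPM (linear axis from 0) of 8 genes in the 6 libraries labelled wild type, picked after their values were seen to show both directions; circles and squares are libraries numbered 1 and 2, and lines join the same number. Hoxa9, Hoxb8, Stmn2 and Cd68 are highest at 1 h, and Otx2, Foxc1, Ccn1 and Myc are lowest at 1 h, while the 3 h values lie near the untreated ones.

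In some other lists the median change differed between the library numbers. Visceral endoderm genes, which supply the embryo with lipoproteins and carrier proteins, had a median difference of 1.20 over 11 genes, but of 0.53 within number 1 and 1.84 within number 2. None reached an unadjusted p under 0.05, although libraries did not overlap, with 3 h higher, in 9 (20.1% of all genes). Apoa1 (chosen after its values were seen), the apolipoprotein of high-density lipoprotein, measured 16.2 and 2.18 TPM at 1 h, then 23.3 and 26.9 TPM at 3 h, with 21.0 and 5.78 TPM untreated. Primitive erythroid genes had a median of -0.85 within number 1 and 0.06 within number 2. Their summed level was 10319 and 13210 TPM at 1 h and 5427 and 8733 TPM at 3 h, and Hbb-bh1, an embryonic beta-like globin, measured 2441 and 3513 TPM at 1 h, then 1208 and 1616 TPM at 3 h. Cytosolic ribosomal protein genes had a median of -0.36 over 79 genes, which was -0.01 within number 1 and -0.71 within number 2, where the 1 h library stood apart. None of the 79 reached an unadjusted p under 0.05.

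The remaining lists had medians between -0.23 and 0.45 and no called gene. Of 16 cardiac muscle genes 2 were higher and 0 lower at an unadjusted p under 0.05, as were 3.92% and 2.05% of all genes. Their differences were positive in 12 and negative in 4, with a median of 0.07. Ryr2, the calcium release channel, measured 2.39 and 1.82 TPM at 1 h, then 4.20 and 4.91 TPM at 3 h. Endothelial genes gave 2 higher of 13 at that p (3.92% of all genes). They had 7 positive and 6 negative differences and a median of 0.05 (-0.09 within number 2). Flt1, a VEGF receptor and 1 of the 2, measured 7.15 and 6.82 TPM at 1 h, then 10.6 and 11.3 TPM at 3 h. NF-kappaB targets gave 2 higher of 10 at that p, Birc3 and Relb (3.92% of all genes). The list leaned neither way, with 5 positive and 5 negative differences and a median of 0.07. Libraries did not overlap in 4 with 3 h higher and in 2 with 3 h lower (20.1% and 11.5% of all genes). Birc3, an inhibitor of apoptosis, measured 2.75 and 3.62 TPM at 1 h, then 5.17 and 5.62 TPM at 3 h. Relb measured 1.36 and 2.45 TPM at 1 h, then 4.20 and 3.65 TPM at 3 h. In both genes the 3 h libraries were also above the untreated ones.

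Outside the lists, the genes with the largest differences were of mixed function. Trim6, a ubiquitin ligase, rose with the block from 3.99 and 4.20 TPM at 1 h to 10.4 and 10.7 TPM at 3 h (difference 1.18, SE 0.205). Pgbd5, a transposase-derived gene, measured 1.96 and 2.26 TPM at 1 h, then 5.88 and 6.06 TPM at 3 h. Baiap2l1, an adaptor of the actin cytoskeleton, measured 6.04 and 5.09 TPM at 1 h, then 12.2 and 13.9 TPM at 3 h. Dock3, a guanine exchange factor, measured 1.95 and 1.90 TPM at 1 h, then 5.83 and 5.29 TPM at 3 h. Rpph1, the RNA subunit of RNase P, measured 13.5 and 12.0 TPM at 1 h, then 31.6 and 32.2 TPM at 3 h. Trim71 and Crebbp, the CBP acetyltransferase, were higher by 1.09 each, with 1 h libraries that lay far apart: Crebbp measured 19.3 and 8.95 TPM at 1 h, then 28.6 and 29.8 TPM at 3 h. Bicd1, higher by 1.11, had 3 h libraries at 5.66 and 13.4 TPM. On the lower side, Arhgef39 measured 6.58 and 14.8 TPM at 1 h, then 2.98 and 2.67 TPM at 3 h. Cpne1, a copine, measured 32.1 and 57.0 TPM at 1 h, then 12.1 and 18.8 TPM at 3 h (limma adjusted p 0.0517 with the block). Ppp1r35 and Hist1h2af were lower by 1.57 and 1.87, with 1 h libraries numbered 2 well above number 1.

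The differences of the 2 pairs of libraries had little in common overall. Across the 15535 genes the difference within number 1 correlated with that within number 2 at r = 0.08, and the differences had an SD of 0.407 in number 1 and 0.707 in number 2. The points are genes, which are not independent, and the 1 h library numbered 2 enters one side. More than a 2-fold higher level in number 1 was found in 160 genes, of which 35 (21.9%) also passed 2-fold in number 2, where 5.08% of all genes did. More than 2-fold lower were 131 genes in number 1, of which 28 (21.4%) also passed in number 2, where 3.05% of all genes did. Genes past 2-fold in both pairs include Cdc20, Hmmr, Pif1, Psrc1, H1f0, Cpne1, Myc, Trim6 and Rpph1, alongside many pseudogenes and unnamed transcripts, whose TPM can depend on how reads are divided among copies.

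**Figure D4:**
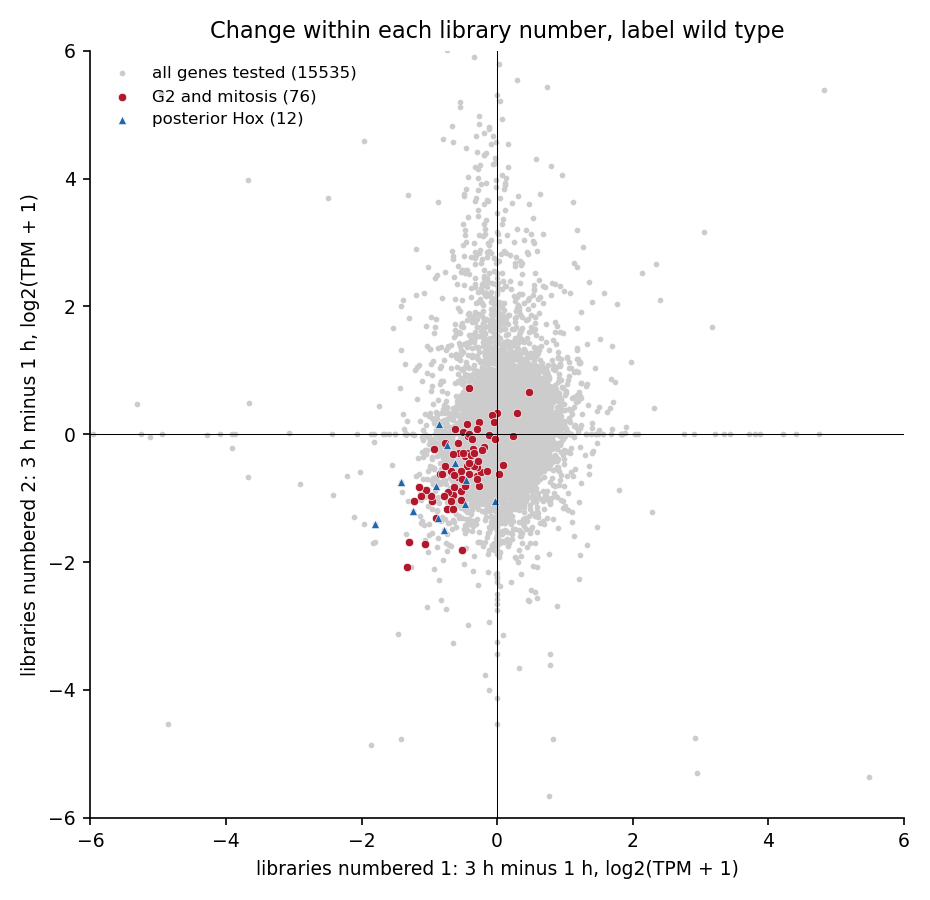
Difference, 3 h minus 1 h on the log2(TPM + 1) scale, of each tested gene within the libraries numbered 1 (x axis) and numbered 2 (y axis); 18 genes lie outside the axes. The cloud is taller than wide (SD 0.707 against 0.407), and 61 of the 76 mitotic genes (red) and 11 of the 12 posterior Hox genes (blue) lie in the lower left quadrant.

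Whether the change from 1 h to 3 h differed between the labels was tested directly, with no library shared between its sides. It differed in 380 genes (2.45%), lower in the libraries labelled wild type in 316 (2.03%) and higher in 64 (0.412%). With the block it differed in 1387 genes (8.93%), lower in 793 (5.10%) and higher in 594 (3.82%). Mitotic genes had a median difference of -0.47 in the wild type label and -0.74 in the knockout label. In the test of the difference 4 of 76 (5.26%) were called without the block, all lower in the wild type label. With the block 18 (23.7%) were called, 9 lower and 9 higher. In the knockout label 28 of the 76 fell (4.31% of all genes) and 4 rose (6.89%). Plk1 gave -0.96 in the wild type and -1.60 in the knockout label (limma adjusted p for the difference 0.208 without and 0.0396 with the block), and Prc1 gave -1.05 and -1.58 (0.382 and 0.0497). Cdc20 lay the other way, with the larger fall in the wild type label, at -1.49 and -0.49 (0.506 and 0.0167). H1f0 gave -1.20 and -1.60 (0.523 and 0.185), which does not show that the labels changed alike.

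The 4 mitotic genes that differed without the block were Psrc1, Kifc1, Spc25 and Gtse1 (the last 3 named after their values were seen). Each was lower at 3 h in the libraries labelled wild type and higher at 3 h in those labelled knockout. Gtse1, which is on the list of p53 targets too, measured 26.2 and 34.2 TPM at 1 h, then 22.1 and 22.5 TPM at 3 h in the first. In the second it measured 52.0 and 64.7 TPM at 1 h, then 197 and 266 TPM at 3 h (limma adjusted p 0.00708). Kifc1, a minus-end kinesin, measured 40.4 and 54.8 TPM at 1 h, then 27.6 and 26.4 TPM at 3 h in the first. In the second it measured 51.9 and 64.1 TPM at 1 h, then 124.9 and 134.7 TPM at 3 h. In the knockout label Psrc1 measured 56.9 and 71.0 TPM at 1 h, then 106 and 115 TPM at 3 h.

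Listed p53 targets were frequent among the genes that differed. Of 53, 26 (49.1%) differed, all lower in the wild type label, as were 2.03% of all genes: 8 of 19 for arrest and feedback, 8 of 14 for cell death and 10 of 20 for repair and metabolism. In the knockout label Mdm2 measured 55.2 and 70.1 TPM at 1 h, then 294 and 306 TPM at 3 h (difference between labels -2.63, limma adjusted p 0.00118). Tap1, a peptide transporter, measured 0.26 and 0.48 TPM at 1 h, then 1.29 and 0.85 TPM at 3 h in the wild type label. Its knockout-label values were 1.00 and 1.03 TPM at 1 h, then 44.4 and 50.9 TPM at 3 h. Neural progenitor genes lay on the other side, with 10 of 19 (52.6%) higher in the wild type label, as were 0.412% of all genes, and 0 lower. Olig2, a factor of motor neuron and oligodendrocyte progenitors, measured 6.98 and 8.48 TPM at 1 h, then 11.0 and 8.68 TPM at 3 h in the wild type label. Its knockout-label values were 6.71 and 7.58 TPM at 1 h, then 0.32 and 0.28 TPM at 3 h. In neurons the difference was called, higher in the wild type label, in 3 of 20 genes (6 with the block). In posterior Hox genes it was called that way in 2 of 12, Hoxb8 and Hoxb9. Over all genes the share called that way was 0.412% (3.82% with the block).

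**Figure D5:**
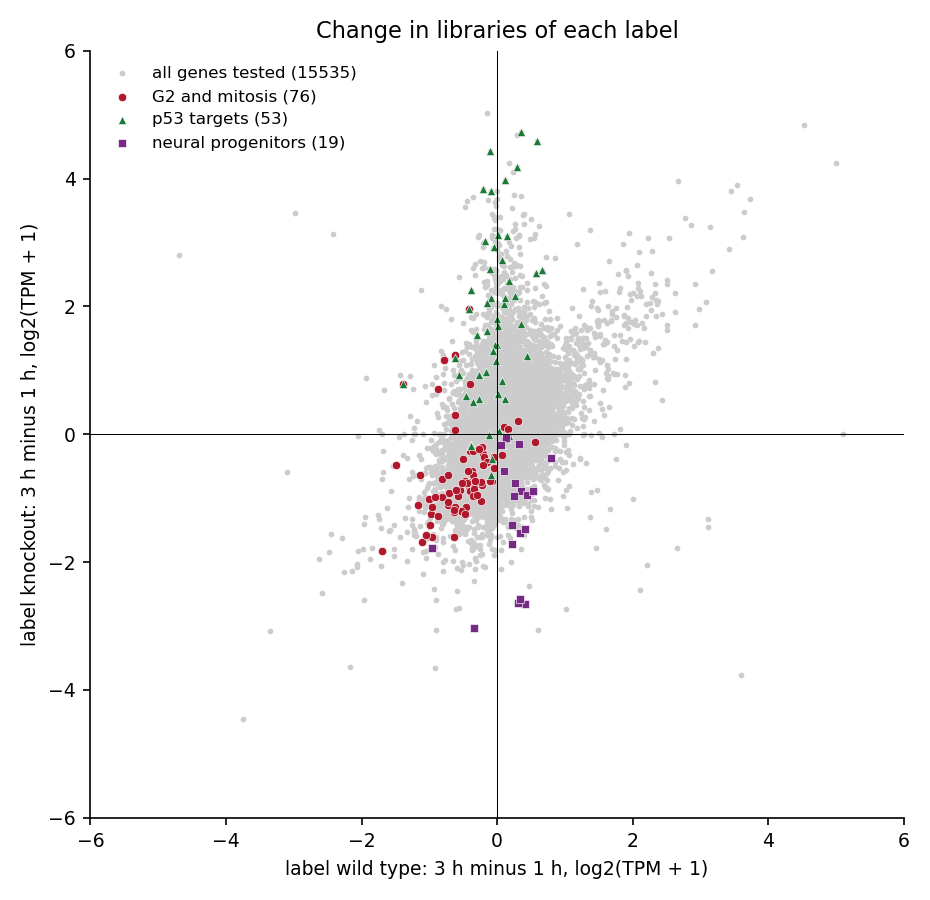
Difference, 3 h minus 1 h on the log2(TPM + 1) scale, of each tested gene in libraries labelled wild type (x axis) and knockout (y axis). Mitotic genes (red) lie mostly in the lower left, p53 targets (green) near 0 on the x axis and above 0 on the y axis, and neural progenitor genes (purple) mostly to the right of 0 and below it, with medians of 0.31 and -0.96.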

How the data were processed

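Poly(A)-selected RNA was sequenced as paired reads of 75 bp, per the labels' protocols. The authors deposited TPM per gene. Named without roles in the submitters' processing notes are RSEM 1.3.3, STAR 2.7.3a, DESeq2 1.42.1, HTSeq 0.12.3, R 4.3.3 and build GRCm39. Strand and annotation were not given in sources used here. TPM sum to the same total in each library, so depth is unknown, and values of paralogs, pseudogenes and overlapping genes are uncertain.

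Gene symbols came by ID from an annotation of an earlier build (52093 of 53647 IDs, 97.1%). Genes reaching a TPM of 1 in 2 or more libraries were fitted as log2(TPM + 1) with limma 3.58.1 in R 4.3.3, 1 mean per group over all 12 libraries, a trend of the spread, two-sided tests and Benjamini-Hochberg adjustment (6 residual degrees of freedom, 5 with the block). The script was tested on simulated data.

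The numbers 1 and 2 come from the labels. Deviations of same-numbered libraries correlated at 0.327 to 0.796 in all 15 pairs of groups. The r between both libraries of a group lay between 0.935 and 0.974 (values identical in 1.10% of genes or fewer), and each was counted as a replicate.

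The comparison, the gene lists and the rule for named genes were chosen with earlier results of these data known. The rule names Trp53 and the 4 title genes, genes called with or without the block, and up to 10 genes each way with the largest difference among those at an unadjusted p under 0.05, without overlap, the same way in both numbers and with a mean TPM of at least 5 at 1 h or at 3 h, which low genes pass through their higher time alone (Sp5, Trim6, Pgbd5, Dock3, Bicd1, Hist1h2af, Pif1, Cd68, Arhgef39 and Pf4). It adds 3 members per list by smallest p and 6 genes each way for the difference between labels. Genes named outside it are said to be. Figures used Python 3.11.15 and matplotlib 3.10.9. Alternatives were a replicate block, another pseudocount, filter, scaling, spread model or library weighting, and leaving out libraries.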

Additional observations from a re-analysis of the deposited data

Results flagged for a closer look

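The change from 1 h to 3 h differed between the labels, by the test of the difference itself in limma, in 380 genes. The values below are the change in the libraries labelled wild type minus the change in those labelled knockout, on the log2(TPM + 1) scale, for named genes with an adjusted p under 0.05.

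Among genes with a lower change in the wild type label were the title genes Cdkn1a (-2.68), Foxo3 (-1.92) and Fbxw7 (-1.37). The difference was -2.63 for Mdm2, -1.81 for Rprm, -1.95 for Tnfrsf10b and -4.00 for Tap1, all listed as p53 targets. It was -2.18 for Psrc1, -2.37 for Gtse1, -1.94 for Kifc1 and -1.18 for Spc25, all on the lists for G2 and mitosis. It was -1.80 for Trim6, -1.51 for Ccn1 and -1.26 for Hmox1, the haem oxygenase induced by NRF2.

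The smallest p-values belonged to genes that were near 0 TPM in the wild type label at both times. Such genes can pass the filter through the libraries labelled knockout alone. Their change in the wild type label is held small on this scale, so the difference rests mainly on the knockout label. The difference was -5.18 for 1700007K13Rik, which stood at 1.02 and 0.88 TPM at 3 h in the wild type label and at 166 and 134 TPM in the knockout label. It was -3.69 for Sec14l5, -3.35 for Zfp750, -3.79 for Mapkapk3 and -3.43 for Ltb4r2.

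Among genes with a higher change in the wild type label were neural genes: Olig2 (2.96), Dbx1 (3.07), Six3 (1.89), Neurog2 (1.79), Otx2 (1.16) and Sox1 (1.40). Dbx1, a factor of interneuron progenitors, stood at 16.8 and 13.3 TPM at 3 h in the wild type label and at 0.33 and 0.76 TPM in the knockout label. The difference was 1.67 for Rcor2, a corepressor, 1.86 for Hoxa2, a hindbrain Hox gene, 1.51 for Hoxb8 and 1.58 for Hoxb9.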

How the results depend on the processing

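The count of genes called between 3 h and 1 h, 0 in limma without the block, was 13 with the replicate block, 4 with no filter on low values (transcripts under 1 TPM) and 3 without both 1 h libraries numbered 2 (unnamed transcripts), and 0 to 1 with each library left out in turn. It stayed at 0 under the other alternatives run. The total at an unadjusted p under 0.05, in either direction, was 928 of 15535 genes in the main fit and 2354 with the replicate block. Counts of mitotic genes at that p therefore moved along with the total and do not by themselves show a stronger or weaker mitotic change. With libraries numbered 1 only, each group compared held 1 library, so the count from that fit cannot decide this either. Mitotic genes lower at an unadjusted p under 0.05, 30 of 76, were 54 with the replicate block, 14 with libraries numbered 1 only and 22 to 33 with each library left out. The difference between the labels, 380 genes, was 1387 with the replicate block, 231 with a pseudocount of 0.1, 173 with a mean TPM of at least 5, 169 with only the groups compared, 21 with libraries numbered 1 only, 60 with those numbered 2 only, 117 without both 1 h libraries numbered 2 and 143 to 285 with each library left out (143 without the 3 h library labelled wild type numbered 1). The causes were not tested.

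The log2 difference of these genes, none called in the main fit, changed sign. With libraries numbered 1 only it was 0.18 for Cdkn1a, -0.0025 for Ccng1, 0.17 for Bbc3, -0.20 for Nkx1-2, -0.034 for Hsph1, -0.22 for Hsp90aa1, 0.32 for Atp5g2, 0.073 for Rps28, 0.12 for Neurog2, 0.0072 for 1700007K13Rik, 0.026 for Sec14l5, 0.014 for Ltb4r2 and -0.082 for Mki67. With those numbered 2 only it was 0.026 for Trp53 and 0.061 for Hba-x, and the difference between labels was 0.014 for Trp53 and -0.26 for Pif1. Without both 1 h libraries numbered 2 it was 0.11 for Cdkn1a, -0.082 for Hand1, -0.17 for Hsp90aa1, 0.041 for Ltb4r2 and -0.11 for Mki67. With quantile normalization it was -0.000745 for Ccng1 and -0.11 for Zfp750.

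With each library left out the range was -0.51 to 0.25 for Trp53, -0.31 to 0.11 for Cdkn1a, -0.11 to 0.26 for Ccng1, -0.14 to 0.66 for Nkx1-2, -0.18 to 0.41 for Hand1, -0.17 to 0.93 for Hsp90aa1, -0.040 to 0.74 for Me1, -0.062 to 0.39 for G6pdx, -0.16 to 0.11 for Neurog2, -0.033 to 0.020 for Sec14l5, -0.10 to 0.041 for Ltb4r2 and -0.11 to 0.33 for Mki67. For the difference between labels it was -0.52 to 0.24 for Trp53, -0.19 to 0.42 for Pif1 and -0.33 to 0.10 for Ccnb2. No scaling moved the median of all genes by more than 0.1 from 0.04. Depth is unknown, and 2 libraries a group limit what can be called.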
